A study of Mus musculus with 6 samples.

Results

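The 35 genes described here encode the antioxidant and glutathione system of the cell: the regulator NRF2 and its inhibitor, the enzymes that make and recycle glutathione, the peroxidases, peroxiredoxins, thioredoxins, superoxide dismutases and catalase that remove oxidants, and the enzymes that conjugate or reduce reactive compounds. They were taken by gene name for their known functions, with earlier results of these data known, and all 35 were found among the 41053 gene names of the count tables. All 35 passed the filter on low counts that left 15263 genes for testing. The RNA came from cultured spermatogonial stem cells of adult mice, germline stem cells kept outside the body in a supplemented medium with growth factors, and was sequenced as strand-specific libraries of polyadenylated RNA. The 6 lines were 3 WT (wild type) and 3 labelled Ephb2-KO. All 6 had been electroporated with a plasmid carrying a green fluorescent reporter, which for the Ephb2-KO lines came with a guide RNA against the receptor gene Ephb2, and all were sorted for fluorescence and subcloned, so each library stands for 1 subcloned line. Per the labels, passage 20 was reached by replicates 1 and 2 in each group, and passage 18 by the third replicate in each.

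Library totals ranged from 21772404 to 34047758 counts. Values are given as CPM, the usual counts per library total with totals scaled by TMM, and as TPM, which also divides by exon length, wherever genes are compared with each other. The targeted gene Ephb2 (chromosome 4, 136647539 to 136835988) stood at 21.2, 27.1 and 10.8 CPM in WT replicates 1, 2 and 3 and at 37.0, 16.5 and 13.4 CPM in replicates 1, 2 and 3 labelled Ephb2-KO, a log2 difference of 0.18 (SE 0.50) without and 0.14 (SE 0.27) with replicate number as a term. Its mRNA was on average no lower under the Ephb2-KO label (edgeR adjusted p = 1 without that term), and every direction below refers to the label. A count over all exons does not show a small insertion or deletion. Same-numbered libraries of the 2 groups resembled each other, though the labels state no pairing. Genotype differences of single genes are therefore given from a blocked fit, with replicate number as a term, unless stated otherwise. All 11 markers of undifferentiated spermatogonia, Ddx4, Dazl, Zbtb16 and Gfra1 among them, were above 1 CPM in all 6 libraries, with a summed level of 1709 to 3445 CPM. Of 15 fibroblast or stromal markers 14 were above 1 CPM in all 6, and their sum was 3325, 4645 and 18540 CPM in WT replicates 1, 2 and 3 and 5188, 5873 and 21910 CPM in those labelled Ephb2-KO. The highest library sums of the Sertoli, Leydig, peritubular myoid, macrophage and endothelial marker lists were 93.6, 2.11, 63.3, 29.7 and 15.2 CPM. The Sertoli marker Fshr and the Leydig markers Hsd3b1 and Lhcgr had 0 counts in all 6 libraries.

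As background, cells make superoxide and hydrogen peroxide as they respire, and 2 thiol systems, one built on glutathione and one on thioredoxin, draw electrons from NADPH to reduce peroxides and oxidised proteins. The transcription factor NRF2, encoded by Nfe2l2, is held low by KEAP1, which presents it for degradation until oxidants or electrophiles modify KEAP1. NRF2 then pairs with a small MAF protein on the antioxidant response element of many genes in the list. In spermatogonial stem cells low levels of reactive oxygen species are known to take part in self-renewal, while excess harms the germline.

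The members differed widely in level. Per length, Sod1, the cytosolic copper-zinc superoxide dismutase, was the most abundant at 2019, 1986 and 1472 TPM in WT replicates 1, 2 and 3 and at 1689, 1871 and 1512 TPM in replicates 1, 2 and 3 labelled Ephb2-KO, and its lowest library lay above the highest library of every other member. Gpx1, the main cytosolic glutathione peroxidase, and Prdx1, a cytosolic peroxiredoxin, followed with mean levels of 912 ± 162 and 890.2 ± 116 TPM (SD over 6 libraries), and their ranges overlapped. In all, 9 members had a mean of at least 300 TPM: these 3 with Txn1, Prdx5, Gsr, Gpx4, Hmox1 and Prdx2. At the other end, 5 had a mean under 30 TPM: Keap1, Gss, Txnrd2, Gpx3 and Sod3. The extracellular superoxide dismutase gene Sod3 was lowest at 2.50 to 13.9 TPM. Together the 35 genes took 0.475% to 0.691% of the counts of a library. The smallest count of any member in any library was 63, for Gpx3 in WT replicate 3, so all lay well above the level of 3 counts (0.0803 to 0.147 CPM). Over the 6 libraries the ratio of the highest to the lowest CPM ran from 1.30 for Sod2, the mitochondrial manganese superoxide dismutase, to 8.56 for Gpx7, with a median of 2.06. It stayed under 1.5 for 7 members (Keap1, Gclm, Prdx1, Prdx4, Prdx5, Sod1 and Sod2) and passed 5 for 7 others (Gpx3, Gpx7, Gpx8, Sod3, Gstm2, Mgst1 and Ephx1).

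**Figure D1:**
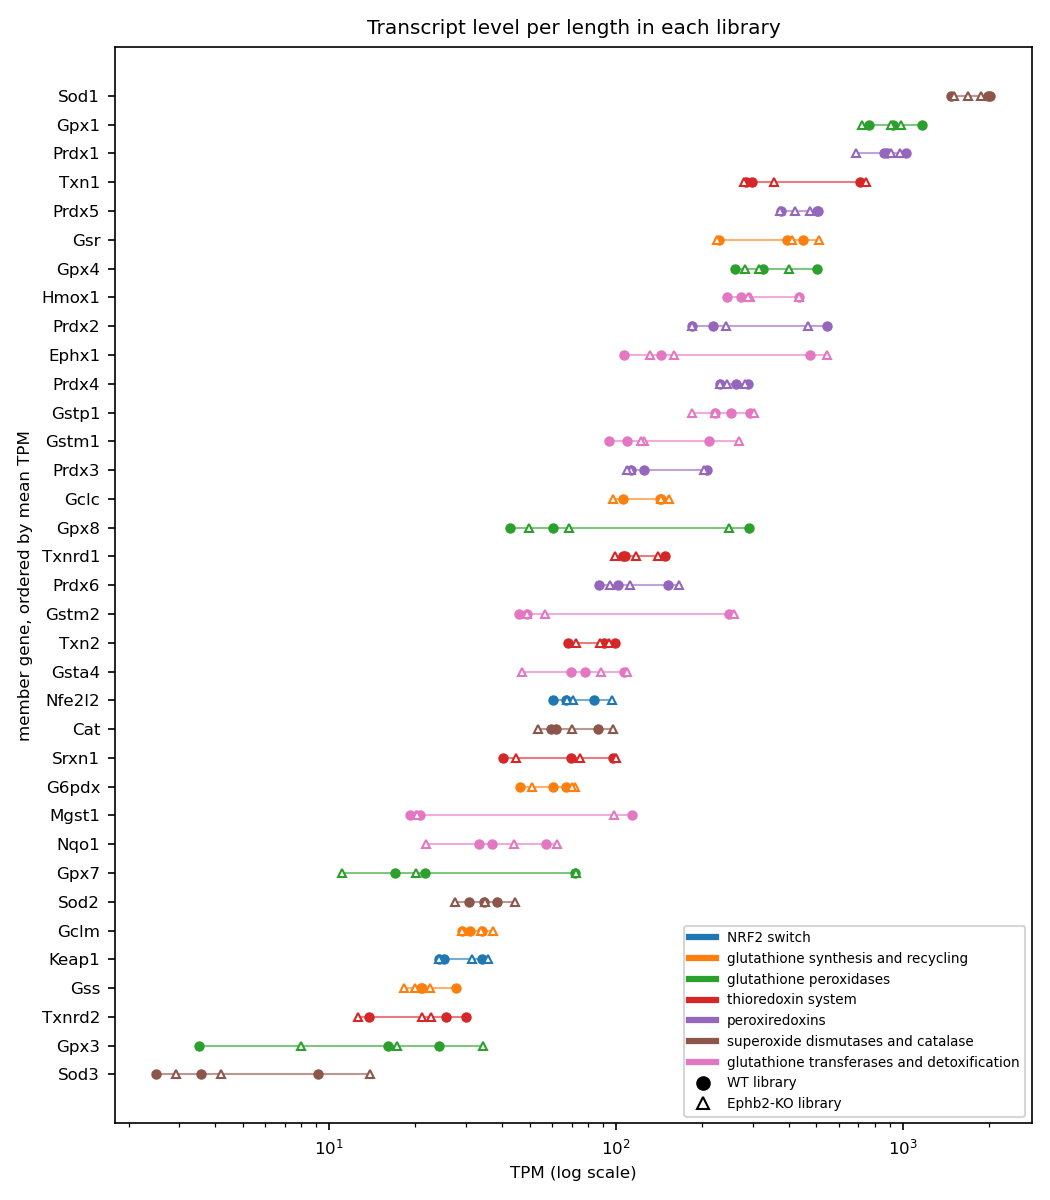
TPM (horizontal, log scale) of each of the 35 genes (vertical, ordered by mean) in the 6 libraries, with filled circles for WT, open triangles for Ephb2-KO, a line over the range and colours for the role. Sod1 lies at the top of the order and Sod3 at the bottom, and Gpx7, Gpx8, Gstm2, Mgst1, Ephx1 and Sod3 show wide ranges shared by both groups.

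No member passed the threshold between the groups in the test over all genes. The edgeR quasi-likelihood test called 0 of 35, against 0% of all 15263 genes, and with the block it called 0 of 35, against 0.0262% of all genes (4 genes, none of them a member). At an unadjusted p under 0.05 there were 0 members without the block, where 0.21% of all genes lay, and 3 with it (Gpx3, Gstm1 and Ephx1, all higher), where 6.47% of all genes lay. Without the block, differences between replicate numbers count as spread, so that test can miss small changes and, for some members, large ones. Mgst1, with the largest SE of the 35 (0.98), had a 95% interval from -2.41 to 2.22 in log2. The biological coefficient of variation was 0.44 without and 0.166 with the block. DESeq2 called 0 members and 4 genes in all. The CPM ranges of the groups overlapped for all 35 members, while they were apart and higher under the Ephb2-KO label for 0.839% of all genes and apart and lower for 1.55%. The smallest p of an exact two-sided permutation test was 0.4, where 3 libraries against 3 cannot go below 0.1. Differences without the block ran from -0.21 in log2 for Txnrd2 to 0.54 for Sod3. The 95% interval lay inside a 2-fold change in either direction for 21 of 35 members without the block and for 34 of 35 with it, Gpx3 being the exception. With the block it lay inside a 1.5-fold change for 32, the exceptions being Gpx3, Sod3 and Gstm1. The intervals of both fits borrow part of their spread from other genes. The labels do not say whether libraries of a group came from separate cultures before subcloning, so the p-values measure the spread between these lines only.

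Small differences in one direction recurred across the pairs of same-numbered libraries. Of 35 members 15 (42.9%) were higher in log2 CPM in the library labelled Ephb2-KO of 3 of 3 pairs, beside 15.6% of all genes tested. Only Gss, which encodes glutathione synthetase, was lower in 3 of 3, beside 12.4% of all genes. The 15 were Nfe2l2, Keap1, Gclc, Gclm, Gsr, Gpx3, Srxn1, Prdx6, Sod2, Sod3, Cat, Gstm1, Gstm2, Ephx1 and Hmox1. Both regulators, 3 of 5 glutathione synthesis and recycling genes, 3 of 4 superoxide dismutases and catalase, and 4 of 8 transferase and detoxification genes were among them. From the other classes came 1 of 5 glutathione peroxidases, 1 of 5 thioredoxin system genes and 1 of 6 peroxiredoxins. The differences were small: over all 35 the median log2 difference was 0.05, 0.17 and 0.08 in pairs 1, 2 and 3, beside -0.0011, 0.0023 and 0.06 over all genes. The fibroblast marker sum given above was also higher in the library labelled Ephb2-KO of 3 of 3 pairs. So were 8 of the 15 fibroblast or stromal markers (53.3%), with 0 lower in 3 of 3. Their median log2 difference was 0.53, 0.36 and 0.20 in pairs 1, 2 and 3. The part of fibroblast RNA in the members' differences was not tested. In the fit without the block the median of the 35 was 0.07. It changed sign when single libraries were left out, with -0.07 without WT replicate 1, -0.02 without WT replicate 2 and -0.14 without Ephb2-KO replicate 3. It was 0.28 without WT replicate 3, 0.25 without Ephb2-KO replicate 1 and 0.12 without Ephb2-KO replicate 2.

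**Figure D2:**
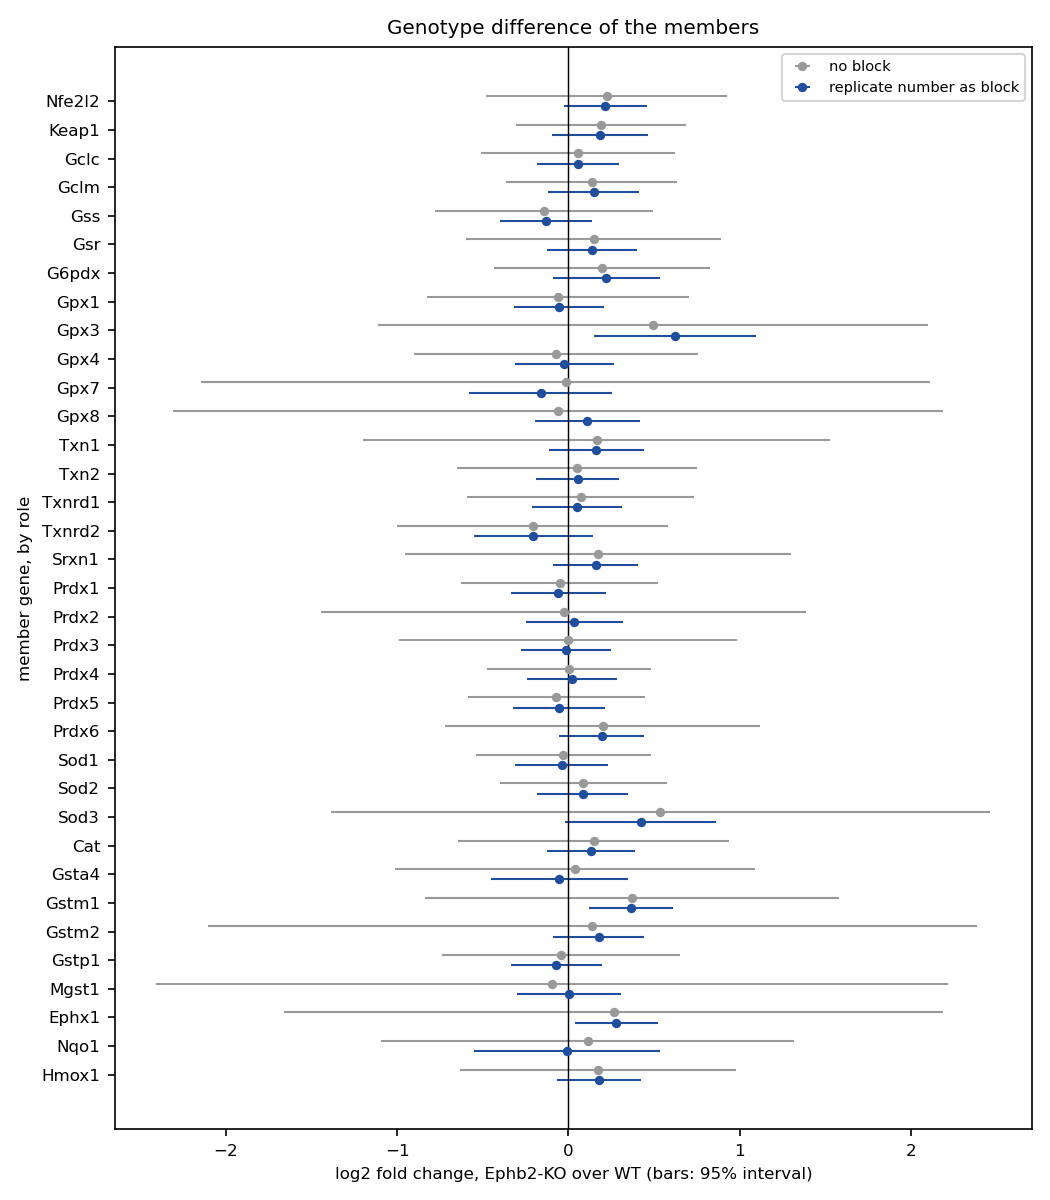
Log2 fold change of Ephb2-KO over WT (horizontal) for the 35 genes (vertical, by role), as points with 95% intervals, in grey from the unblocked and in blue from the blocked fit. The blue intervals are shorter for each gene, and those of Gpx3, Gstm1 and Ephx1 lie to the right of 0 although their adjusted p did not pass.

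The libraries at passage 18 differed from those at passage 20 in 18 members. In the edgeR test of passage with the group as a term, 16 of 35 members were higher at passage 18, beside 15.4% of all genes, and 2 were lower, beside 10.4% of all genes. In either direction that is 18 of 35, beside 25.8% of all genes, and at an unadjusted p under 0.05 it was 24 of 35, beside 39.7%. Higher were Nfe2l2, Gss, Gpx4, Gpx7, Gpx8, Txn1, Prdx2, Prdx3, Prdx6, Sod3, Cat, Gstm1, Gstm2, Gstp1, Mgst1 and Ephx1, and lower were Gsr and Gpx3. The median log2 difference of the 35 was 0.57, beside -0.06 over all genes tested. CPM ranges of passage 18 and 20 were apart for 28 members, 25 higher at passage 18 and 3 lower, beside 26.9% and 26.6% of all genes. With replicate number 3 set against numbers 1 and 2 in the blocked fit, 23 members were higher and 3 lower, beside 25% and 23% of all genes and 48% in either direction. Passage 18 is replicate number 3 alone, so passage, replicate number and anything else shared by those 2 lines cannot be told apart. With 1 passage 18 library left, whose spread is then taken from the other libraries, fewer members passed: Gstm2, Mgst1 and Ephx1 without WT replicate 3, and these 3 with Gpx8 without Ephb2-KO replicate 3. The call of Gss was lost whichever of the 6 libraries was left out, without a filter and under DESeq2 size factors. Whether a genotype difference depends on passage cannot be decided here, since each group had 1 passage 18 library. In an edgeR interaction fit added after the data were seen, the term ran from -0.48 (SE 0.62) in log2 for Gpx8 to 0.84 (SE 0.72) for Gpx3.

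Most fibroblast markers differed between the passages alongside the members. Of the 15 fibroblast or stromal markers 12 were higher at passage 18 in the same test, with log2 differences from 1.47 for Col1a1 to 4.33 for Lum, and the median over the 15 was 2.24. Vim was above 0 (1.24, SE 0.43) and did not pass. Thy1 (-0.23, SE 0.45) and Twist1 (-0.59, SE 0.35) were below 0 and did not pass, and Twist1 was lower with the block (edgeR adjusted p = 0.0186). Their summed level was 3325 to 5873 CPM in the 4 passage 20 libraries and 18540 and 21910 CPM in the 2 passage 18 libraries. Of the 11 undifferentiated spermatogonia markers 7 were lower at passage 18 (log2 differences of -1.20 to -0.72), and their sum was 2859 to 3445 CPM against 1912 and 1709 CPM. The sum of 6 differentiating or meiotic germ cell markers was 74.9 to 138 CPM at passage 20 and 36.6 and 38.5 CPM at passage 18. These markers did not move together. Kit was lower (log2 difference -1.74, SE 0.28, edgeR adjusted p = 0.00517). Stra8 had a difference of 0.32 (SE 0.69, edgeR adjusted p = 0.767), and with the block it was higher (0.64, SE 0.23, edgeR adjusted p = 0.0388). Sycp3 stood at 13.7 CPM in WT replicate 1 and 26.5 CPM in Ephb2-KO replicate 1, and at 0.247 to 0.360 CPM in the other libraries. Prm1 had 0 counts in all 6 libraries. In the other marker lists the edgeR passage test called Wt1 of the Sertoli list, which was lower (log2 difference -0.997, SE 0.19, adjusted p = 0.00973), and Acta2 of the myoid list, which was higher (log2 difference 1.80, SE 0.51, adjusted p = 0.0390), while it called 0 of the 7 tested Leydig, macrophage and endothelial markers (1 at an unadjusted p under 0.05, Tek). Mitochondrially encoded transcripts made up 0.849% to 1.93% of counts at passage 20 and 0.735% and 0.902% at passage 18. The part of RNA from these cell types in the members' passage differences was not tested. In bulk RNA more cells of a type and more RNA per cell cannot be told apart.

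**Figure D3:**
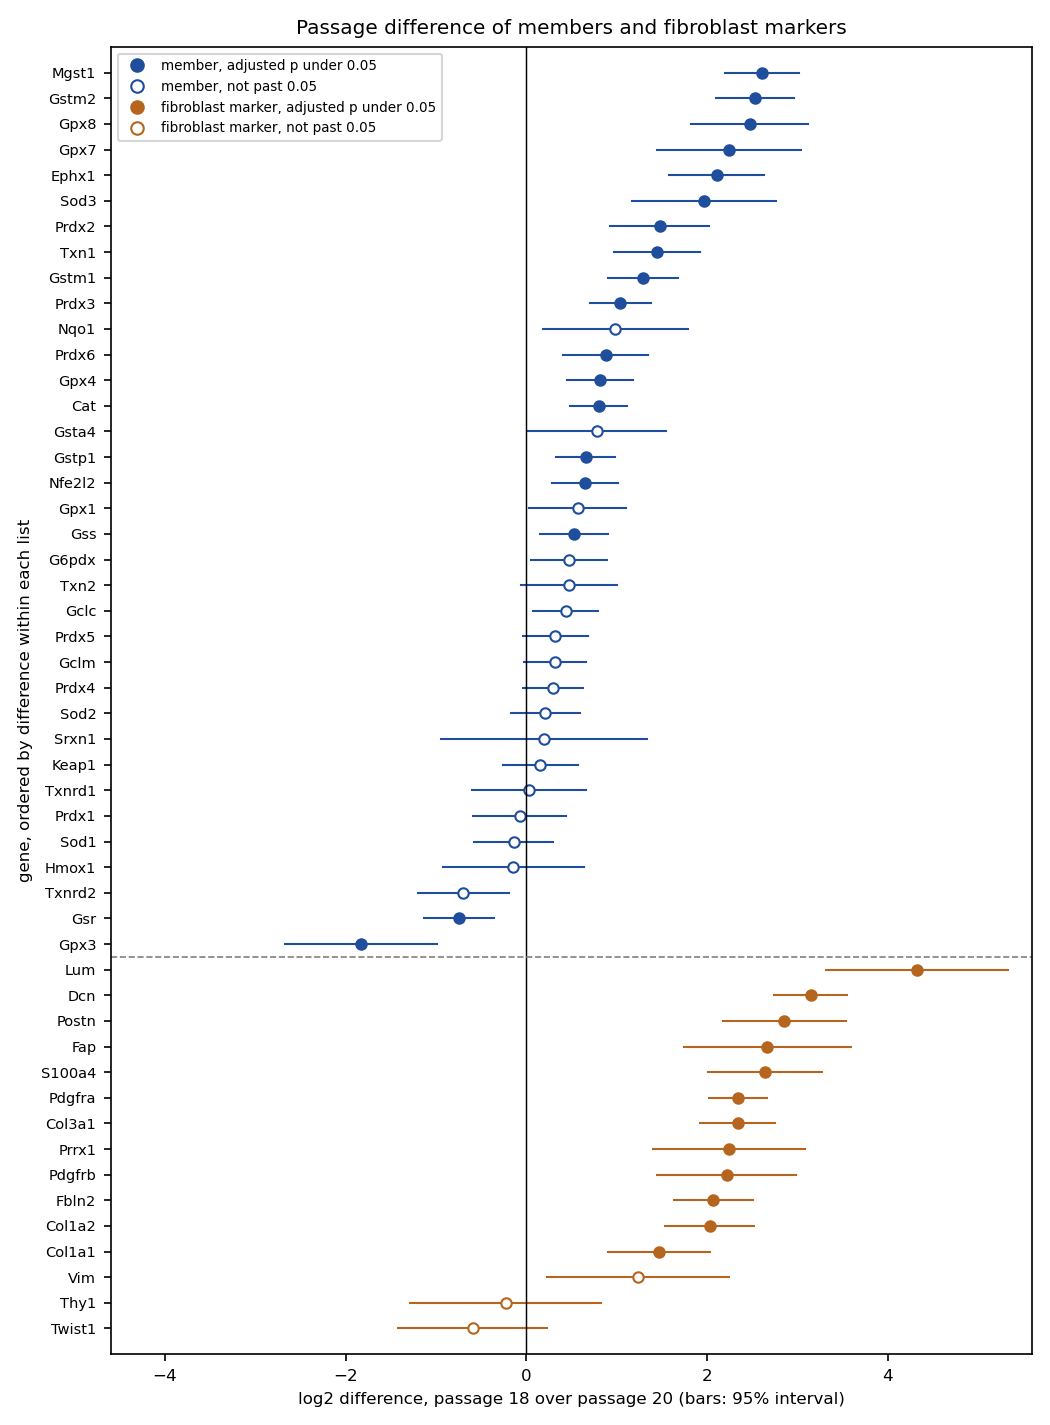
Log2 difference of passage 18 over passage 20 (horizontal, with 95% intervals) for the 35 genes in blue and the 15 fibroblast or stromal markers in brown (vertical, each list ordered by size), filled where the adjusted p was under 0.05. Mgst1, Gstm2, Gpx8, Gpx7 and Ephx1 reach past 2, where most fibroblast markers lie, and Gsr and Gpx3 are filled to the left of 0.

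The transcript of the regulator NRF2 was higher in the passage 18 lines, and that of its inhibitor KEAP1 did not pass. Nfe2l2 (chromosome 2, 75675513 to 75704641) stood at 75.2, 93.4 and 129 CPM in WT replicates 1, 2 and 3 and at 86.5, 106 and 155 CPM in replicates 1, 2 and 3 labelled Ephb2-KO. Each library labelled Ephb2-KO lay above its same-numbered WT library, and both passage 18 libraries lay above the other 4. The passage difference was 0.65 (SE 0.16, adjusted p = 0.0229) in log2, and the genotype difference was 0.22 (SE 0.11) with the block and 0.22 (SE 0.30) without it. Keap1 (chromosome 9, 21229730 to 21239332) stood at 50.4, 39.8 and 45.5 CPM in WT replicates 1, 2 and 3 and at 51.2, 44.7 and 58.9 CPM in replicates 1, 2 and 3 labelled Ephb2-KO. It varied less than Nfe2l2, with a passage difference of 0.16 (SE 0.18, adjusted p = 0.549) and a blocked genotype difference of 0.19 (SE 0.13).

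The antioxidant response element, which NRF2 binds with a small MAF protein, was looked for in the RefSeq promoter windows of the members, as a description only. The core TGACNNNGC was searched on both strands in windows of 300 bases, from 250 before to 50 after each start site (GRCm38.p6). Of the 29 members with a window 8 (27.6%) held it, beside 14% of all 27025 genes with a window: Nfe2l2, Gclm, G6pdx, Txnrd1, Srxn1, Prdx1, Sod1 and Mgst1. Of these 8, Nfe2l2 and Mgst1 passed in the passage test and none in the genotype test. The members were taken for known functions in this pathway, so their share beside all genes is no result about passage or genotype. The window of Nqo1 held no match. Gclc, Gsr, Gsta4, Hmox1, Prdx6 and Sod3 were not in the table. The stretches below are shown because they hold the core in front of the start site with no annotated exon over them. The core is in capitals, read on the gene's strand, where it appears as the reverse complement GCNNNGTCA. It begins 134, 133, 56 and 92 bases before the start site of Gclm, Prdx1, Sod1 and Txnrd1.
Gclm, chr3:122245398-122245456, plus strand: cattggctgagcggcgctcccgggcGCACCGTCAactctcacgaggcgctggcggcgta
Prdx1, chr4:116685441-116685499, plus strand: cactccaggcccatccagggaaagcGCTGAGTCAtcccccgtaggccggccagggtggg
Sod1, chr16:90220681-90220739, plus strand: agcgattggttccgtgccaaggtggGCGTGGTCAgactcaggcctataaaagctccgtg
Txnrd1, chr10:82859089-82859147, plus strand: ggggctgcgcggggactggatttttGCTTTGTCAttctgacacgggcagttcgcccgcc
The matches differ in the letters between the fixed ones, and a match describes the letters and not a bound site.

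Genes of glutathione synthesis and recycling went different ways with passage. Glutathione is made by glutamate-cysteine ligase, whose catalytic and modifier subunits are encoded by Gclc and Gclm, and by glutathione synthetase (Gss). Gclm (chromosome 3, 122245557 to 122269984) stood at 53.3, 63.1 and 76.8 CPM in WT replicates 1, 2 and 3 and at 66.5, 66.8 and 78.8 CPM in replicates 1, 2 and 3 labelled Ephb2-KO, higher in 3 of 3 pairs with a blocked genotype difference of 0.15 (SE 0.12) and a passage difference of 0.32 (SE 0.15, adjusted p = 0.145). Gclc spanned 133 to 206 CPM and Gss 37.7 to 66.3 CPM. Gclc was higher in 3 of 3 pairs and Gss lower, with blocked genotype differences of 0.06 (SE 0.11) and -0.13 (SE 0.12). Gss was higher at passage 18 by 0.53 (SE 0.16, adjusted p = 0.0473) in log2, while Gclc had 0.44 (SE 0.15, adjusted p = 0.0733). With the block Gclc passed (edgeR adjusted p = 0.00818). Gsr, which encodes glutathione reductase (chromosome 8, 33652523 to 33698163) and is the most abundant gene of this class per length, stood at 359, 452 and 257 CPM in WT replicates 1, 2 and 3 and at 452, 469.7 and 261 CPM in replicates 1, 2 and 3 labelled Ephb2-KO. Both passage 18 libraries lay below the other 4, a difference of -0.74 (SE 0.17, adjusted p = 0.0175). Gsr was higher in 3 of 3 pairs, by 0.33, 0.05 and 0.02 in log2, with a blocked genotype difference of 0.14 (SE 0.12). G6pdx, the X-linked glucose-6-phosphate dehydrogenase that supplies NADPH (chromosome X, 74409483 to 74429194), stood at 47.0, 68.3 and 83.7 CPM in WT replicates 1, 2 and 3 and at 71.4, 65.4 and 91.0 CPM in replicates 1, 2 and 3 labelled Ephb2-KO. Its WT replicate 1 was the lowest library and pair 1 differed by 0.60 in log2, against -0.06 and 0.12 in pairs 2 and 3. Its blocked genotype difference was 0.22 (SE 0.14) and its passage difference 0.48 (SE 0.18, adjusted p = 0.0902). With the block the passage difference of G6pdx passed (edgeR adjusted p = 0.0200).

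Among the glutathione peroxidases, 3 were higher and 1 lower in the passage 18 lines, and the 2 largest positive differences were in the members of the endoplasmic reticulum. Gpx7 and Gpx8 encode peroxidases of that compartment that use cysteine, where Gpx1, Gpx3 and Gpx4 encode selenoenzymes. Gpx8 (chromosome 13, 113042763 to 113046388) stood at 14.3, 22.6 and 120.0 CPM in WT replicates 1, 2 and 3 and at 16.2, 28.9 and 105 CPM in replicates 1, 2 and 3 labelled Ephb2-KO. The fitted level at passage 18 was 5.55-fold that at passage 20, a log2 difference of 2.47 (SE 0.28, adjusted p = 0.00124). Gpx7 (chromosome 4, 108400390 to 108406961) stood at 7.22, 10.2 and 37.8 CPM in WT replicates 1, 2 and 3 and at 4.59, 10.7 and 39.3 CPM in replicates 1, 2 and 3 labelled Ephb2-KO, a passage difference of 2.25 (SE 0.34, adjusted p = 0.00432). For both genes the 2 passage 18 libraries lay above the other 4. Within pairs 1, 2 and 3 the genotype difference was 0.18, 0.36 and -0.19 in log2 for Gpx8 and -0.65, 0.07 and 0.06 for Gpx7. Gpx3, the secreted plasma glutathione peroxidase (chromosome 11, 54902453 to 54910377), went the other way and stood at 14.4, 10.7 and 2.60 CPM in WT replicates 1, 2 and 3 and at 19.9, 13.0 and 6.08 CPM in replicates 1, 2 and 3 labelled Ephb2-KO. It was lowest in the 2 passage 18 libraries (log2 difference -1.83, SE 0.36, adjusted p = 0.0113) and higher in the library labelled Ephb2-KO of 3 of 3 pairs. The blocked genotype difference of Gpx3 was 0.62 (SE 0.22), the largest of the 35, with a 95% interval from 0.15 to 1.10. Its unadjusted edgeR p was 0.0148 and its adjusted p 0.741. Gpx4, which reduces lipid peroxides and guards against ferroptosis (chromosome 10, 80047166 to 80056439), stood at 186, 164 and 351 CPM in WT replicates 1, 2 and 3 and at 175, 202 and 290.0 CPM in replicates 1, 2 and 3 labelled Ephb2-KO and was higher at passage 18 by 0.82 (SE 0.16, adjusted p = 0.0104). Gpx1 (chromosome 9, 108339080 to 108340338) stood at 262, 353 and 494 CPM in WT replicates 1, 2 and 3 and at 240.3, 391 and 431 CPM in replicates 1, 2 and 3 labelled Ephb2-KO. Its passage difference of 0.57 (SE 0.23, adjusted p = 0.108) did not pass without the block and passed with it (adjusted p = 0.00242). In the genotype comparison Gpx1, Gpx4, Gpx7 and Gpx8 had blocked differences of -0.06 (SE 0.12), -0.02 (SE 0.13), -0.16 (SE 0.19) and 0.11 (SE 0.14).

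In the thioredoxin system the cytosolic thioredoxin gene was higher in the passage 18 lines, and neither reductase gene passed without the block. Txn1 (chromosome 4, 57943373 to 57956411) stood at 98.5, 115 and 302 CPM in WT replicates 1, 2 and 3 and at 94.7, 155 and 328 CPM in replicates 1, 2 and 3 labelled Ephb2-KO. Its passage 18 libraries lay well above the other 4 (log2 difference 1.45, SE 0.20, adjusted p = 0.00309), and pair 2 had the largest genotype difference at 0.43. The mitochondrial thioredoxin gene Txn2 spanned 94.3 to 169 CPM, with a passage difference of 0.47 (SE 0.23, adjusted p = 0.169) that passed with the block (edgeR adjusted p = 0.00437). Txnrd1, the cytosolic thioredoxin reductase, spanned 109 to 198 CPM and had a passage difference of 0.03 (SE 0.27, adjusted p = 0.944), with the passage 18 libraries inside the range of the others. Txnrd2, the mitochondrial reductase, spanned 17.8 to 33.2 CPM and was lower in both passage 18 libraries than in the other 4, at -0.70 (SE 0.22, adjusted p = 0.0502) without the block and adjusted p = 0.00678 with it. Srxn1 encodes sulfiredoxin, which repairs overoxidised peroxiredoxins (chromosome 2, 152105516 to 152111376), and stood at 37.5, 101 and 80.0 CPM in WT replicates 1, 2 and 3 and at 40.4, 117 and 88.8 CPM in replicates 1, 2 and 3 labelled Ephb2-KO. Here replicate number 2 was high and number 1 low in both groups, with number 3 between them. Srxn1 was higher in 3 of 3 pairs by 0.11, 0.21 and 0.15 in log2. Its passage difference was 0.20 (SE 0.48, edgeR adjusted p = 0.800), and with the block it passed (0.38, SE 0.12, edgeR adjusted p = 0.0222). Blocked genotype differences were 0.16 (SE 0.11) for Srxn1 and 0.16 (SE 0.13) for Txn1, and 0.06 (SE 0.11), 0.05 (SE 0.12) and -0.21 (SE 0.16) for Txn2, Txnrd1 and Txnrd2.

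Of the 6 genes for peroxiredoxins, the abundant thiol peroxidases, 3 were higher in the passage 18 lines and the other 3 did not pass. Prdx1 (chromosome 4, 116685544 to 116700822) stood at 866, 1145 and 1091 CPM in WT replicates 1, 2 and 3 and at 886, 1230 and 878 CPM in replicates 1, 2 and 3 labelled Ephb2-KO, the highest CPM of any member. Its passage 18 libraries lay within the range of the other 4 (log2 difference -0.07, SE 0.22, adjusted p = 0.838). Prdx4, the peroxiredoxin of the endoplasmic reticulum, spanned 178 to 246 CPM and Prdx5 spanned 295 to 439.6 CPM, with passage differences of 0.30 (SE 0.14) and 0.32 (SE 0.15) that did not pass. Prdx2 (chromosome 8, 84969587 to 84974834) stood at 186, 243 and 673 CPM in WT replicates 1, 2 and 3 and at 179.5, 305 and 596 CPM in replicates 1, 2 and 3 labelled Ephb2-KO. Both passage 18 libraries lay above the other 4, at a fitted 2.79-fold of passage 20 (log2 difference 1.48, SE 0.24, adjusted p = 0.00529). Prdx3, the mitochondrial peroxiredoxin (chromosome 19, 60864051 to 60874556), stood at 60.9, 61.2 and 124 CPM in WT replicates 1, 2 and 3 and at 53.4, 67.2 and 125 CPM in replicates 1, 2 and 3 labelled Ephb2-KO and was 2.06-fold higher at passage 18 (log2 difference 1.04, SE 0.15, adjusted p = 0.00301). Prdx6, which has 1 active cysteine and also acts on phospholipids (chromosome 1, 161240112 to 161251219), stood at 105, 137 and 226 CPM in WT replicates 1, 2 and 3 and at 112, 171 and 255 CPM in replicates 1, 2 and 3 labelled Ephb2-KO. It was higher at passage 18 by 0.88 (SE 0.20, adjusted p = 0.0186) and was the only peroxiredoxin higher in the library labelled Ephb2-KO of 3 of 3 pairs, with a blocked genotype difference of 0.19 (SE 0.11). Of the other 5, Prdx1 had a blocked genotype difference of -0.06 (SE 0.13) and Prdx2, Prdx3, Prdx4 and Prdx5 had 0.03 (SE 0.13), -0.01 (SE 0.12), 0.02 (SE 0.12) and -0.05 (SE 0.12).

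Of the enzymes that remove superoxide and hydrogen peroxide, the extracellular dismutase and catalase genes were higher in the passage 18 lines. The 2 intracellular dismutase genes did not pass. Sod1 (chromosome 16, 90220742 to 90226322) stood at 429.9, 471 and 386 CPM in WT replicates 1, 2 and 3 and at 350.1, 501 and 409.7 CPM in replicates 1, 2 and 3 labelled Ephb2-KO, with a passage difference of -0.14 (SE 0.19, adjusted p = 0.626) and a blocked genotype difference of -0.04 (SE 0.12). Sod2 spanned 43.2 to 56.2 CPM, the narrowest range of the 35 as a ratio, with a passage difference of 0.21 (SE 0.16, adjusted p = 0.381) and a blocked genotype difference of 0.08 (SE 0.12). Sod3 (chromosome 5, 52363946 to 52371405) stood at 2.94, 4.70 and 13.3 CPM in WT replicates 1, 2 and 3 and at 3.35, 6.21 and 20.8 CPM in replicates 1, 2 and 3 labelled Ephb2-KO. Its 2 passage 18 libraries lay above the other 4 (log2 difference 1.97, SE 0.34, adjusted p = 0.00725), and each library labelled Ephb2-KO lay above its WT partner. The blocked genotype difference of Sod3 was 0.42 (SE 0.20), and the edgeR p was 0.0589 before and 0.741 after adjustment. Cat, the peroxisomal catalase (chromosome 2, 103453849 to 103485160), stood at 53.4, 56.8 and 91.6 CPM in WT replicates 1, 2 and 3 and at 59.1, 57.9 and 107 CPM in replicates 1, 2 and 3 labelled Ephb2-KO. The 4 passage 20 libraries lay close together and both passage 18 libraries above them (log2 difference 0.80, SE 0.13, adjusted p = 0.00622). Its blocked genotype difference was 0.13 (SE 0.12), and it too was higher in 3 of 3 pairs.

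The transferases and detoxifying enzymes held the largest passage differences of the list. Mgst1, a membrane-bound glutathione transferase (chromosome 6, 138140316 to 138156755), stood at 13.7, 14.1 and 93.2 CPM in WT replicates 1, 2 and 3 and at 13.0, 17.0 and 83.4 CPM in replicates 1, 2 and 3 labelled Ephb2-KO. The fitted level at passage 18 was 6.12-fold that at passage 20 (log2 difference 2.61, SE 0.18, adjusted p = 0.000237), with both passage 18 libraries above the other 4. Its blocked genotype difference was 0.00 (SE 0.14). Gstm2, a cytosolic mu-class transferase (chromosome 3, 107981702 to 107986453), stood at 25.5, 30.2 and 168 CPM in WT replicates 1, 2 and 3 and at 26.4, 39.3 and 181 CPM in replicates 1, 2 and 3 labelled Ephb2-KO and was 5.78-fold higher at passage 18 (log2 difference 2.53, SE 0.19, adjusted p = 0.000287). Its libraries labelled Ephb2-KO were higher in 3 of 3 pairs, with a blocked genotype difference of 0.18 (SE 0.12). Ephx1, the microsomal epoxide hydrolase (chromosome 1, 180976155 to 181020904), stood at 70.4, 106 and 387 CPM in WT replicates 1, 2 and 3 and at 84.8, 132 and 459 CPM in replicates 1, 2 and 3 labelled Ephb2-KO. It was 4.31-fold higher at passage 18 (log2 difference 2.11, SE 0.23, adjusted p = 0.00102), and the library labelled Ephb2-KO was the higher in each pair. Gstm1, another mu-class transferase (chromosome 3, 108012255 to 108017973), stood at 43.6, 55.8 and 119.8 CPM in WT replicates 1, 2 and 3 and at 55.9, 70.6 and 157 CPM in replicates 1, 2 and 3 labelled Ephb2-KO. It was higher in 3 of 3 pairs by nearly the same amount, 0.36, 0.34 and 0.39 in log2, and was also higher at passage 18 (log2 difference 1.29, SE 0.16, adjusted p = 0.00207). The blocked genotype difference of Gstm1 was 0.36 (SE 0.11), with an edgeR p of 0.00765 before and 0.741 after adjustment. For Ephx1 it was 0.28 (SE 0.11), with an edgeR p of 0.0280 before and 0.741 after adjustment. The mu-class genes are close copies of each other, and Gstp1, Prdx6 and Prdx2 have the copies Gstp2, Prdx6b and Prdx2-rs3 in the tables. Reads shared between copies were not counted, so these levels are uncertain. Gstp1 was higher at passage 18 by 0.66 (SE 0.14, adjusted p = 0.0149) over a range of 54.0 to 96.1 CPM, with a blocked genotype difference of -0.07 (SE 0.12).

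Nqo1 and Hmox1, the best known targets of NRF2, did not pass in either test without the block. Nqo1 encodes a quinone reductase and spanned 10.8 to 40.5 CPM, with both passage 18 libraries above the other 4 (log2 difference 0.99, SE 0.34, adjusted p = 0.0721, adjusted p = 0.00763 with the block). Its pairs differed in sign, at -0.80, 0.58 and 0.18 in log2. Gsta4, an alpha-class transferase, had the same order of signs (-0.61, 0.36 and 0.08) and spanned 14.4 to 43.8 CPM. Its passage difference was 0.78 (SE 0.33, edgeR adjusted p = 0.118), and it passed with the block (edgeR adjusted p = 0.00369). Hmox1, the heme-degrading oxygenase (chromosome 8, 75093591 to 75100596), stood at 173, 345 and 239 CPM in WT replicates 1, 2 and 3 and at 203, 389 and 262 CPM in replicates 1, 2 and 3 labelled Ephb2-KO. As for Srxn1, replicate number 2 was highest and number 1 lowest in both groups, and the passage 18 libraries lay between them. Hmox1 had a passage difference of -0.15 (SE 0.33, adjusted p = 0.783) and a blocked genotype difference of 0.18 (SE 0.11), higher in 3 of 3 pairs.

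**Figure D4:**
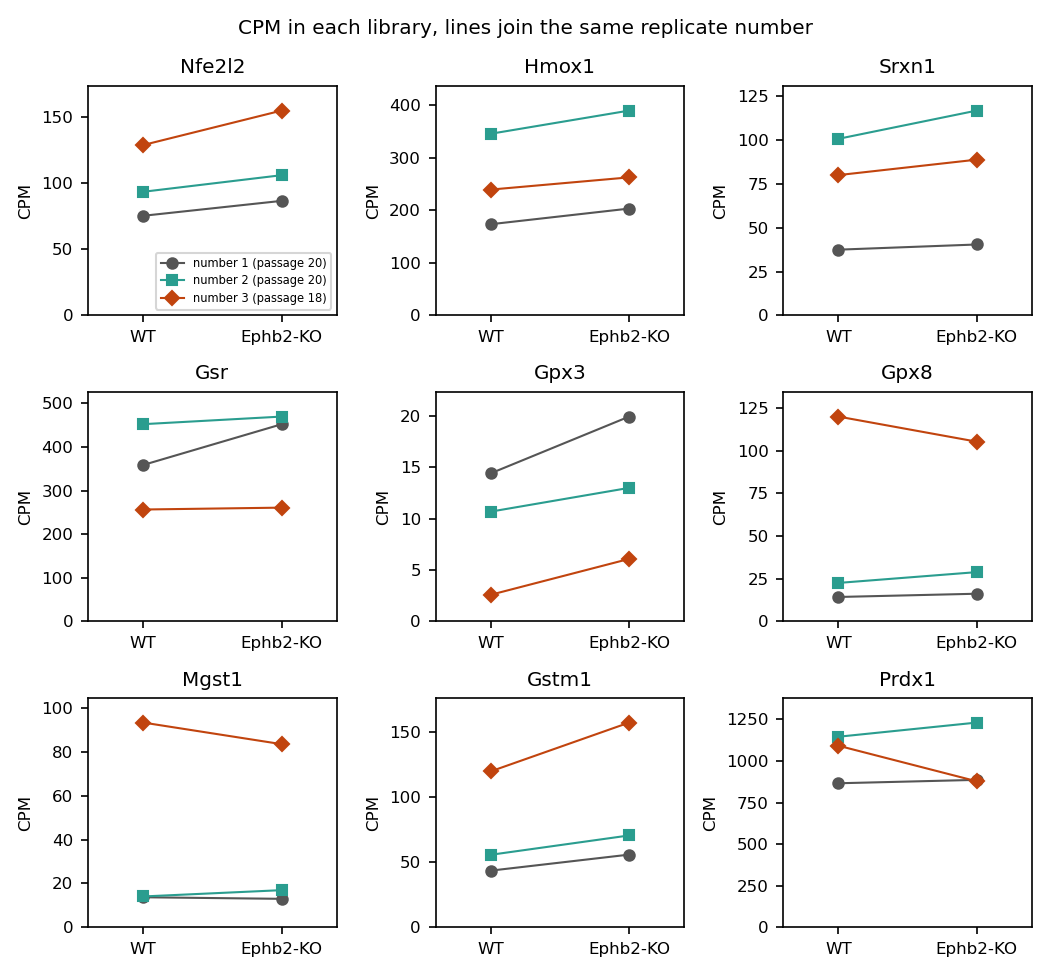
CPM (vertical, from 0) in WT and Ephb2-KO libraries for 9 members, with a line joining each pair of the same replicate number. Number 3 lies apart from numbers 1 and 2 for Gpx8, Mgst1 and Gstm1 (above) and for Gsr and Gpx3 (below), while number 2 is highest for Hmox1 and Srxn1.

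Of 84 other genes of the pathway, 76 were tested and 0 passed in the genotype comparison, with or without the block (edgeR). Their median log2 genotype difference without the block was 0.07, beside 0.01 over all genes tested. In 3 of 3 pairs 17 (22.4%) were higher and 5 (6.58%) lower, beside 15.6% and 12.4% of all genes. In the blocked edgeR fit, 4 of the 76 had an unadjusted p under 0.05, a threshold that 6.47% of all genes passed, so the count is no result about these genes: Sesn2 (blocked log2 difference 0.31, SE 0.12), which encodes a stress-induced sestrin, Mt2 (blocked log2 difference 0.30, SE 0.12), a metallothionein, and the transferase gene Gstt1 (blocked log2 difference 0.75, SE 0.28) were higher and Gpx2 (blocked log2 difference -0.49, SE 0.18) lower, each with an adjusted p of 0.741. Other genes with the smallest p in their class were Slc7a11, the cystine importer (blocked log2 difference 0.55, SE 0.32, at 0.776 to 8.50 CPM), Nfe2l1, which encodes NRF1 (blocked log2 difference 0.23, SE 0.14), and the quinone reductase gene Nqo2 (blocked log2 difference -0.35, SE 0.17). Ggct, a cyclotransferase of glutathione breakdown, was the one tested gene of the 76 whose CPM ranges were apart, lower in the libraries labelled Ephb2-KO, beside 1.55% of all genes. It was chosen after its values were seen, and its blocked difference was -0.17 (SE 0.13) with an adjusted p of 0.802.

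At passage 18, 27 of the 76 other pathway genes were higher and 3 lower in the edgeR test, and the median log2 difference was 0.49. The background shares of 15.4% and 10.4% of all genes given above apply here too. Of 20 other NRF2 targets, NADPH suppliers and iron genes 10 were higher and 0 lower, led by the carbonyl reductase gene Cbr3 (log2 difference 2.52, SE 0.22, adjusted p = 0.000517) and mitochondrial isocitrate dehydrogenase Idh2 (log2 difference 2.39, SE 0.17, adjusted p = 0.000269). Of 7 metal-binding and other defence genes 4 were higher, with the selenium transport gene Sepp1 (log2 difference 2.97, SE 0.20, adjusted p = 0.000237) and the copper chaperone gene Atox1 (log2 difference 1.23, SE 0.15, adjusted p = 0.00155) at the front. Thioredoxin-fold and methionine sulfoxide genes had 6 of 15 higher, nucleoredoxin (Nxn, log2 difference 1.05, SE 0.17, adjusted p = 0.00613) and the glutaredoxin gene Glrx2 (log2 difference 0.94, SE 0.21, adjusted p = 0.0167) among them. Cysteine supply and glutathione turnover had 3 of 10 higher, including Chac2 (log2 difference 2.02, SE 0.30, adjusted p = 0.00413), a glutathione-degrading enzyme, and Ggt5 (log2 difference 2.40, SE 0.44, adjusted p = 0.00925). Of 14 further peroxidases and transferases 3 were higher, including Gstt1 (log2 difference 2.65, SE 0.35, adjusted p = 0.00231) and Gsta3 (log2 difference 1.75, SE 0.24, adjusted p = 0.00305), and Gsto2 was lower (log2 difference -0.78, SE 0.17, adjusted p = 0.0154). Of 10 partners and regulators of NRF2, 1 was higher, Sqstm1 (log2 difference 0.86, SE 0.15, adjusted p = 0.00710), which encodes the autophagy receptor p62, and 2 were lower, the MAF partner gene Maff (log2 difference -1.02, SE 0.25, adjusted p = 0.0241) and the repressor gene Bach2 (log2 difference -1.84, SE 0.48, adjusted p = 0.0298). Of the 12 genes named by the smallest passage p, Cbr3, Idh2 and Sepp1 passed whichever library was left out, and the others did not pass when WT replicate 3 or Ephb2-KO replicate 3 was. The call of Maff was lost in 4 of the 6 fits that left out a library, so also with some passage 20 libraries left out. Gsto2 and Bach2 were chosen after their values were seen.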

How the data were processed

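Polyadenylated RNA of 3 WT and 3 Ephb2-KO lines was measured, 1 library each. The deposited tables hold raw counts of reads, 1 row per gene name, beside each gene's exon length. Per the file headers, the authors counted with featureCounts 1.4.6-p4 over GENCODE vM3 exons with strand setting 2, and set no option for read pairs, multiply mapped or overlapping reads, so reads shared by near-identical copies were left out. The submitters' processing notes name build GRCm38.p3 and the tools STAR and FastQC, whose versions are not given there. Gene coordinates come from the count tables (GRCm38, 1-based). No row lacked a gene name and 0 columns held other samples.

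The counts went into edgeR 4.0.16 under R 4.3.3 (filterByExpr, TMM, robust glmQLFit, glmQLFTest, Benjamini-Hochberg over 15263 genes, threshold 0.05), fitted on all 6 libraries. Genotype was tested without a covariate and passage with the group as a term. The standard error is the log2 difference divided by the square root of F. Log2 CPM used a prior count of 2. Promoter sequences are from RefSeq (GRCm38.p6). Deviations from the group means correlated at 0.596, 0.736 and 0.85 between libraries numbered 1, 2 and 3, and at most 0.079 across numbers, so the numbers in the titles pair the libraries by a bound of 0.1, and blocked values are printed beside the others. The biological coefficient of variation was 0.44 without and 0.166 with the block. Pairs of libraries within a group had a chi-square of 93.6 to 300.0 per degree of freedom, so none were duplicates. Alternatives were DESeq2 1.42.0, its size factors, 2 other filters, the block, prior counts of 0.5 and 5 and leaving out each library. The scripts were also run on simulated data. For passage these held equal means over the replicate numbers, unlike the data here, so that run does not test the passage calls given above. Figures used matplotlib 3.10.9.

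Members and lists were chosen with earlier results of these data known. Library values are given for Nfe2l2, Keap1, the members of each class with the 2 smallest blocked genotype p-values or the highest TPM, and up to 12 members called in either test. Other pathway genes are named by the smallest p in their class.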

Additional observations from a re-analysis of the deposited data

How the results depend on the processing

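In the genotype comparison DESeq2 and the replicate block each called 4 genes where 0 passed, and 0 members passed in any setting. For members at passage 18 the direction held under the block, DESeq2, its size factors in edgeR and a stricter filter, and without a filter it turned for Txnrd1 (-0.00164 in log2). The block called 7323 genes for passage, against 3935. Leaving out each library in turn gave 284 (without WT replicate 3) to 4187 genes, 3 (without WT replicate 3) to 20 members, and a median of the 35 of 0.46 to 0.66 in log2. It moved the genotype median over -0.14 to 0.28 and called 0 genes. Log2 genotype differences that changed sign when a library was left out were -0.20 to 0.44 for Cat, -0.79 to 1.36 for Ephx1, -0.00217 to 0.40 for G6pdx, -0.26 to 0.21 for Gpx1, -1.41 to 0.39 for Gpx2, -1.27 to 1.07 for Gpx7, -0.0386 to 0.37 for Gsr, -0.21 to 0.93 for Gstm1, -0.12 to 0.47 for Hmox1, -0.0431 to 0.46 for Nfe2l2, -1.04 to 0.36 for Nqo2, -0.23 to 0.0333 for Prdx1, -0.14 to 0.57 for Prdx6, -0.45 to 1.19 for Slc7a11, -0.17 to 0.0852 for Sod1, -0.55 to 1.41 for Sod3, -0.17 to 0.50 for Srxn1 and -0.46 to 0.85 for Txn1. For passage they were -0.33 to 0.0973 for Hmox1, -0.26 to 0.12 for Prdx1, -0.0538 to 0.61 for Srxn1 and -0.15 to 0.23 for Txnrd1. With the replicate block the genotype median of the members was 0.06, and no member's genotype call changed. The number of members higher in 3 of 3 pairs was 15 under DESeq2 size factors and prior counts of 0.5 and 5. The cause of these changes was not tested, other than that a left-out library leaves fewer samples. At the depth of these libraries each member had at least 63 counts.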

Other observations

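At passage 20, replicate numbers 1 and 2 also differed in both groups, which the comparisons above do not use. Of the 35 members 6 were over 1.5-fold higher in replicate 2 than in replicate 1 in both groups (Gpx8, Txnrd1, Srxn1, Sod3, Ephx1 and Hmox1), beside 6.93% of all 15263 genes tested, and 0 were as much lower, beside 9.61%. The ratio of replicate 2 to replicate 1 was 2.69 in WT and 2.89 in the libraries labelled Ephb2-KO for Srxn1, 1.99 in WT and 1.92 in the libraries labelled Ephb2-KO for Hmox1 and 1.54 in WT and 1.82 in the libraries labelled Ephb2-KO for Txnrd1. The fibroblast marker sum had 3325 and 4645 CPM in WT replicates 1 and 2 and 5188 and 5873 CPM in those labelled Ephb2-KO. These values were picked after they were seen and have no test.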
